A study of Mus musculus with 12 samples.

Results

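The 31 genes described here encode nuclear hormone receptors and were taken by name from a list of such receptors (the choice uses no measured value, though it was made with earlier results of these data known), out of 27179 gene identifiers in the count tables. All 31 were found. They fall into 8 classes: 3 fatty acid receptors (Ppara, Ppard, Pparg), 3 retinoid X receptors (Rxra, Rxrb, Rxrg), 3 retinoic acid receptors (Rara, Rarb, Rarg), 2 thyroid hormone receptors (Thra, Thrb), 4 oestrogen and oestrogen-related receptors (Esr1, Esrra, Esrrb, Esrrg), 4 other ligand-regulated receptors (Nr1h2, Vdr, Nr3c2, Pgr), 3 immediate early receptors (Nr4a1, Nr4a2, Nr4a3) and 9 other orphan receptors (Nr2c1, Nr2c2, Nr2f1, Nr2f2, Nr2f6, Nr5a2, Nr6a1, Rora, Nr0b2). Polyadenylated RNA of adipose tissue from wild-type C57BL/6J mice was sequenced at day 7 in 12 libraries, 3 from each of 4 groups: untreated adult mice (Adult control), adult mice with a scald burn (Adult burn), untreated aged mice (Aged control) and aged mice with a scald burn (Aged burn). Burned mice were held in water at 98 °C for 10 s on the back, giving 20% of the body surface, and adults also for 2 s on the belly, giving another 10%. The adult burn therefore covered 30% and the aged burn 20%, with buprenorphine for pain, and the labels do not say whether untreated mice received the analgesic or a sham bath. Sex, fat depot and exact ages were not given in the sources used here. Nothing in the labels states that every library is a separate mouse, and p-values therefore reflect the spread between libraries only.

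Nuclear hormone receptors are transcription factors that bind DNA through a zinc finger domain and, in most members, a small lipid-soluble ligand through a separate domain. Many of them (PPARs, retinoic acid, thyroid hormone, vitamin D and liver X receptors) bind DNA as a pair with a retinoid X receptor, and ligand exchanges corepressors for coactivators on the receptor. In fat, PPARγ (Pparg) is the factor needed to form and keep adipocytes, PPARα (Ppara) drives fatty acid oxidation genes, and the NR4A receptors are switched on within minutes to hours by cyclic AMP and inflammatory signals.

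The adult libraries held 25231506 to 32236330 counts each and the aged libraries 31846557 to 46531070. Levels are CPM (counts as a share of the library), scaled by TMM over the 12 libraries. The 10 adipocyte markers were all detected in every group, summing to 22100 to 61200 CPM in Adult control, 52500 to 56300 in Adult burn, 47000 to 54400 in Aged control and 10800 to 29700 in Aged burn. The 10 macrophage markers summed to 495 to 917 CPM in Aged control and 3260 to 16200 in Aged burn, and all 10 rose with burn in aged mice. Single libraries stood apart. Adult control 1 held 1290 CPM of 6 B cell markers (at most 38.2 in any other library) and 593 CPM of 6 T cell markers. Its adipocyte sum of 22100 CPM was the lowest among adult libraries, the others holding 49600 to 61200. Adult burn 1 held 3010 CPM of 8 skeletal muscle markers. Aged burn 2 held 1710 CPM of 8 neutrophil markers with the lowest adipocyte sum of all libraries, 10800. In bulk tissue, fewer cells of a type and less RNA per cell cannot be told apart, and age goes with the count table and with burn size, which cannot be told apart either.

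Promoter sequence was read for 30 of the 31 members from RefSeq (GRCm38.p6). The windows below are the 250 bases before an annotated transcript start, 5′ to 3′ on the gene's strand. Those of Nr4a2 and Vdr lie directly before the span of the gene. Those of Nr4a1, Ppara and Rarb lie inside the span, and that of Nr4a3 crosses its start. The first 3 are shown because the NR4A genes share a motif: capitals mark TGACG or its reverse complement CGTCA, the core of the cyclic AMP response element. Nr4a1 lies at chr15:101266596-101266845 (plus strand), Nr4a2 at chr2:57124004-57124253 (minus) and Nr4a3 at chr4:48045055-48045304 (plus).
Nr4a1: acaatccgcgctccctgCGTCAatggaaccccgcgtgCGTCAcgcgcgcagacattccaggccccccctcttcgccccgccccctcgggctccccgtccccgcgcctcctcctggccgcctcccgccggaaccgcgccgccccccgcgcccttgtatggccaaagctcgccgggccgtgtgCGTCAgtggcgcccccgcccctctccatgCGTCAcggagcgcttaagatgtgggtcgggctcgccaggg
Nr4a2: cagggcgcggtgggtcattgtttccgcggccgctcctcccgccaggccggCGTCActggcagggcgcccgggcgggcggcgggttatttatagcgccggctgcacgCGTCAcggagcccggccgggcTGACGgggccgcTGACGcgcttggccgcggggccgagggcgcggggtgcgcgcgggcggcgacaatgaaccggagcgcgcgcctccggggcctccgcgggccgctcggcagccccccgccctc
Nr4a3: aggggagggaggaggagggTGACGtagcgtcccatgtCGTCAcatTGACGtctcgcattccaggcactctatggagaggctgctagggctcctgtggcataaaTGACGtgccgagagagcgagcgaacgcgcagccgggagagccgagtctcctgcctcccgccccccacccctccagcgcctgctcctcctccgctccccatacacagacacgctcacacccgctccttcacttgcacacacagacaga
Each of these 3 windows held 4 matches. Of 32851 promoter windows of the same length, 17.8% held at least 1 match and 16 windows (0.0487%) held 4 or more, of which 3 belonged to the 31 members. In Nr4a1 the matches lie within the longer TGCGTCA, which 1.75% of windows held.

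The next 3 windows are those of Ppara and Vdr, called below, and of Rarb, shown for a repeat that few windows hold. Capitals mark a pair of GTTCA copies with 6 bases between them, searched on both strands, in Rarb (chr14:16575477-16575726, minus), a direct repeat of the retinoic acid response element type. They mark TGACG in Ppara (chr15:85735526-85735775, plus) and GGGCGG, the GC box, in Vdr (chr15:97908297-97908546, minus).
Rarb: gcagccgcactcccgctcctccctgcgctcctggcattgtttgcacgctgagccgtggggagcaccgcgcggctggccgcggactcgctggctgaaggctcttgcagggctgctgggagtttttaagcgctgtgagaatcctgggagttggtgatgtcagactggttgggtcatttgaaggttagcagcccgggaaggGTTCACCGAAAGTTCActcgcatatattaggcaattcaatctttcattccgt
Ppara: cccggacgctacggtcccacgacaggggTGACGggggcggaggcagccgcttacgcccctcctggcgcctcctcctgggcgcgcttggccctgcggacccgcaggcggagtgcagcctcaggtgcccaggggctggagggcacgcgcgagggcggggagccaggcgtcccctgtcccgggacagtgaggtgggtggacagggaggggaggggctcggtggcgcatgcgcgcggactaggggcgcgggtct
Vdr: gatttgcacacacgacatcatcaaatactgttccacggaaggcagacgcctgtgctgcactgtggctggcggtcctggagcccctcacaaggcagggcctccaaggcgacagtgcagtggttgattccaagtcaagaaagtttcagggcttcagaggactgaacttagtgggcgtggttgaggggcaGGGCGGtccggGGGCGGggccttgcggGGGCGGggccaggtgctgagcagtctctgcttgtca
The repeat in the Rarb window was found in 22 of 32851 windows (0.067%), and Rarb was the member that held it. The GC box was found in 32.7% of windows, with 3 matches in Vdr. The receptor core site AGGTCA was found in 14.0% of windows. Of the 48 windows of members (a gene can have more than 1) 8 held it, from 7 members (Nr5a2, Nr6a1, Pparg, Rarg, Rxra, Rxrg and Thrb). A match describes these letters in these windows and no more.

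Per kilobase of exon, which allows genes to be compared, Pparg was the most abundant member in all 4 groups, with group means of 62.3, 77.6, 101 and 47.9 CPM per kilobase in Adult control, Adult burn, Aged control and Aged burn. Rxra, its partner in the PPARγ heterodimer, came next at 38.0, 41.9, 46.9 and 29.3 CPM per kilobase. Thra, Nr1h2 and Esrra followed, at 21.9, 19.4 and 16.7 in Adult control. Ppara stood at 9.31 in Adult control and 30.9 in Adult burn, above Thra in the latter group, and at 8.04 and 3.63 in the aged groups. At the other end, Pgr (progesterone receptor) had 5 reads in all 12 libraries and Nr0b2, a receptor without a DNA-binding domain, had 11. No Nr0b2 read was found in the 6 adult libraries, which allows up to 0.0175 CPM, counting error only. Esrrb had 97 reads over the 12 libraries and was tested only in the models of all 12. Pgr and Nr0b2 were too low for any test.

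**Figure D1:**
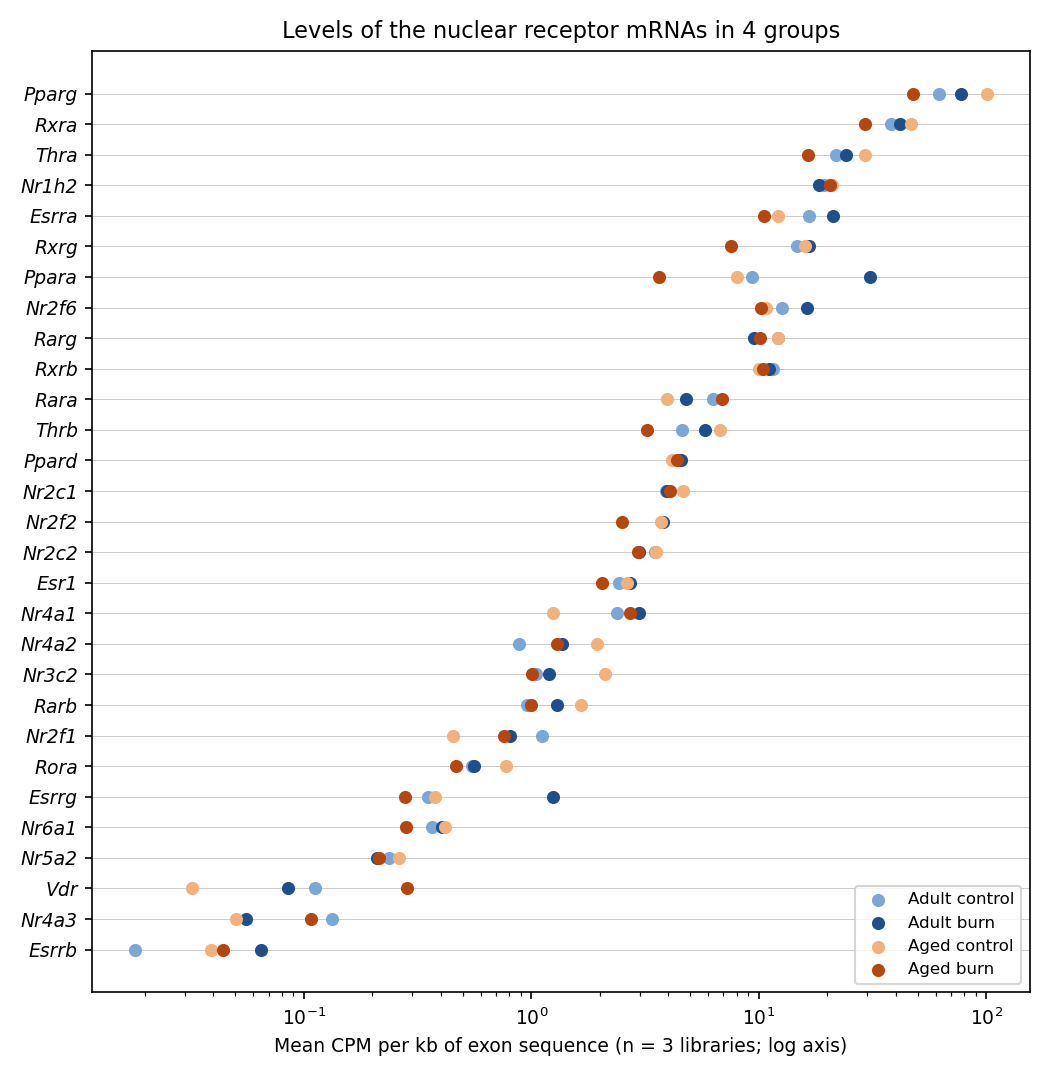
Levels of the members per kilobase of exon on a log axis (CPM per kilobase), with 1 point for the mean of each group's 3 libraries. Pparg and Rxra lie at the top, and Esrrb, Nr4a3 and Vdr lie among the lowest members that passed a count filter.

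Burn in aged mice moved 2 of the 28 tested members past the test: Vdr rose and Rora fell. In adult mice 0 of 28 passed. The background was 16.7% of 15132 genes in aged mice (13.7% higher, 3.03% lower) and 0.0411% of 14600 genes in adults (edgeR quasi-likelihood test, adjusted p under 0.05). At unadjusted p under 0.05, 4 members passed in adults (Ppara, Esrra, Esrrg and Nr4a2), against 4.37% of all genes. DESeq2 called 1 member in adults, Ppara, where it called 0.425% of genes, and 8 members in aged mice (Vdr, Nr4a1 and Nr2f1 higher, and Rora, Rxra, Thra, Nr2f2 and Pparg lower), where it called 33.1%.

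More members had negative fold changes in aged than in adult mice. In aged mice 21 of 28 had a log2 fold change below 0, with a median of -0.33 against -0.01 over all genes, of which 50.8% were below 0. The aged burn and control libraries did not overlap for 15 members, 11 of them lower after burn (Pparg, Rxra, Rxrg, Rarb, Thra, Thrb, Esrra, Nr3c2, Nr2c2, Nr2f2 and Rora) and 4 higher (Rara, Vdr, Nr4a1 and Nr2f1). The background of such genes was 24.3% lower and 26.3% higher. In adult mice 19 of 28 were above 0, against 6585 of 14600 genes, with a median of 0.14 against -0.04 over all genes. There 5 tested members lay higher in every burn library than in any control library (Ppara, Esrra, Esrrg, Nr4a2 and Nr2f6), against 6.76% of genes. Of the 28 members 0 lay lower throughout, against 499 of 14600 genes.

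The burn response itself differed between ages for 2 of 29 tested members, Vdr upward and Ppara downward (aged minus adult), where 11.9% of 15553 genes were called (9.64% upward, 2.22% downward). Of the 29, 20 had a difference below 0, against 47.6% of all genes, and the median was -0.54 against 0.05. DESeq2 called 9 members (Vdr and Nr2f1 upward, and Ppara, Nr4a2, Esrra, Rxra, Pparg, Thra and Nr2f2 downward) and 24.3% of genes.

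**Figure D2:**
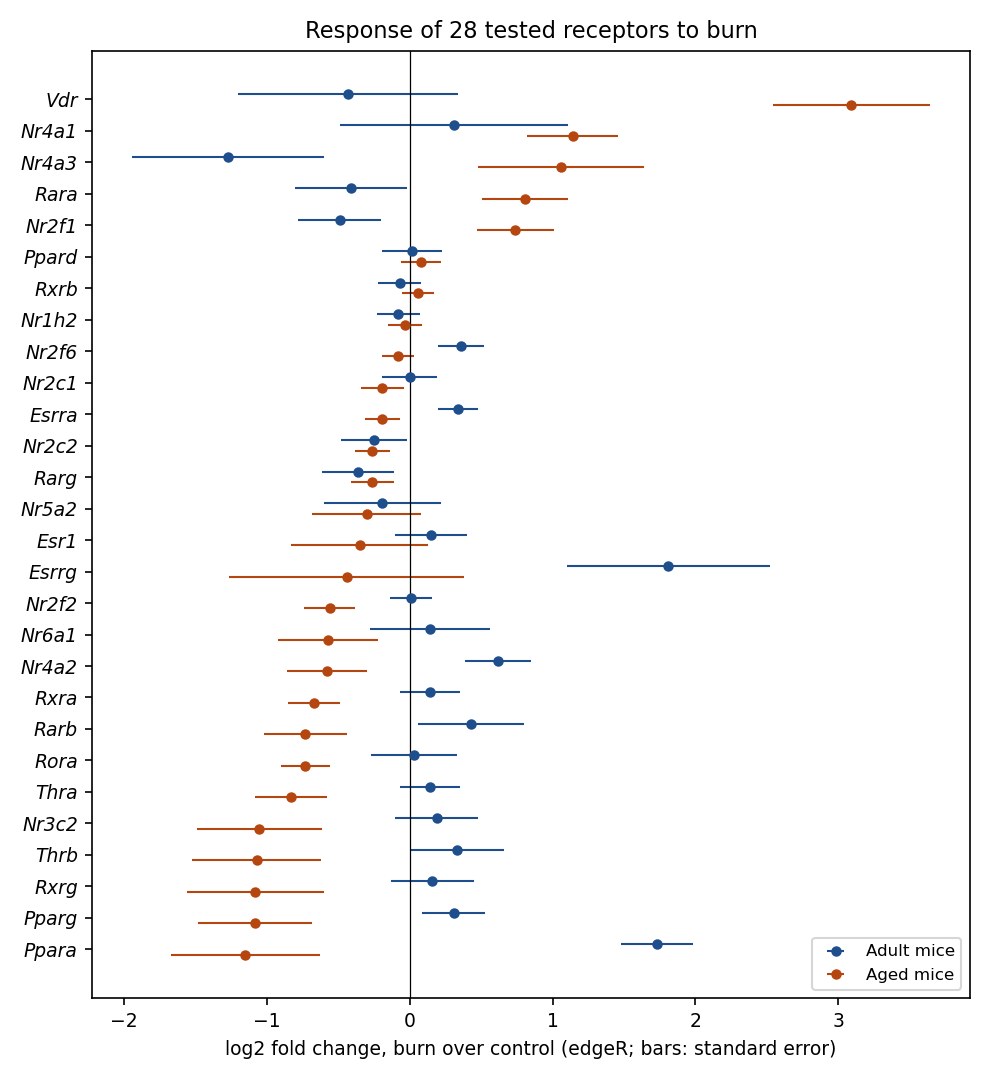
Log2 fold changes with burn in adult and in aged mice for each tested member, as points with bars of 1 standard error, ordered by the value in aged mice. Ppara has the opposite sign in the 2 ages (1.73 and -1.15), and Vdr stands furthest to the right in aged mice (3.09).

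Ppara, the receptor that fatty acids activate to switch on their own oxidation, was the 1 member whose burn response was called lower in aged than in adult mice. The gene (Entrez 19013) spans chr15:85734910-85806851 in RefSeq on GRCm38. It stood at 24.5, 43.9 and 38.6 CPM in the 3 Adult control libraries and at 140, 102 and 113 CPM in Adult burn. In aged mice it stood at 25.8, 45.4 and 21.3 CPM in controls and 14.7, 5.39 and 21.6 CPM after burn. Every burned adult library was above every control library, while the aged groups overlapped, with Aged burn 2 lowest. The log2 fold change was 1.73 ± 0.25 SE in adults (edgeR adjusted p = 0.269, unadjusted p = 0.000295) and -1.15 ± 0.52 in aged mice (adjusted p = 0.154). DESeq2 gave an adjusted p of 2.59e-06 in adults. The difference between the responses, -2.88 ± 0.63, passed the test (edgeR adjusted p = 0.0233). It lost the call when 1 of 6 libraries was left out (Adult burn 1 or 2, any Aged control, or Aged burn 1), with adjusted p up to 0.073, and when Adult control 1 and Adult burn 1 were left out together (0.0973). Over all 12 such fits the log2 difference ran from -3.37 to -2.49. The fits that lost the call called 0 to 719 genes over all genes, against 1845 with all libraries in.

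Pparg, the adipocyte master regulator, stood at 134, 225 and 193 CPM in Adult control and 213, 253 and 222 in Adult burn, and these groups overlapped. In aged mice it stood at 259, 326 and 314 CPM in controls and 142, 68.1 and 214 after burn, without overlap (log2 -1.08 ± 0.40 SE, edgeR adjusted p = 0.102). Aged burn 2, the library with the lowest adipocyte sum, was lowest. Ppard, which is expressed in most tissues, lay between 27.0 and 42.2 CPM in all 12 libraries. The mean number of Ppara reads per Pparg read went from 0.193 in Adult control to 0.524 in Adult burn, each burn library being above each control, and from 0.102 to 0.0946 in aged mice.

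**Figure D3:**
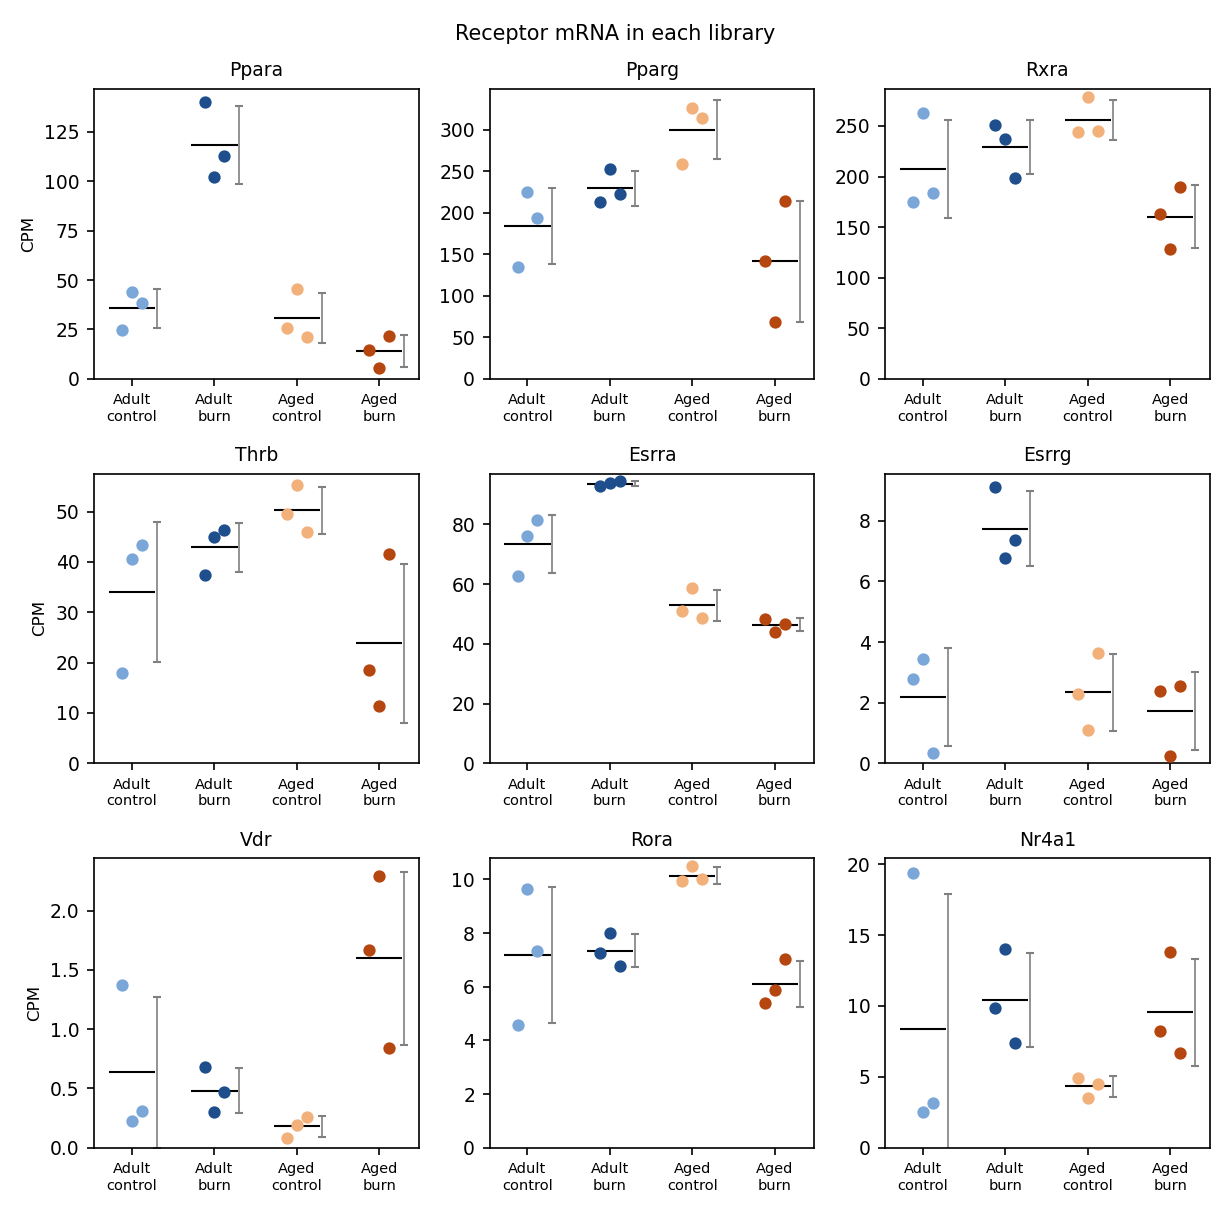
CPM in each of the 12 libraries for Ppara, Pparg, Rxra, Thrb, Esrra, Esrrg, Vdr, Rora and Nr4a1. Each gene has 1 panel with 1 point per library, a line at the group mean and a bar of ± 1 SD beside it (axes start at 0, where longer bars end). Ppara is high in the 3 Adult burn libraries (102 to 140 CPM), and Vdr is highest in Aged burn (0.838 to 2.29 CPM), where its range meets Adult control 1 at 1.37 CPM.

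Among 18 genes known as PPAR targets, 0 of 17 tested were called in burned adults (0.0411% of all genes). Of the 17, 16 had positive fold changes (median 0.33), against 6585 of 14600 genes. In burned aged mice 1 of 18 rose, against 13.7% of all genes, and 14 had negative fold changes (median -0.73), against 50.8%. Of these targets, Fabp4, Plin1, Cidec, Adipoq and Acsl1 are also adipocyte markers. The sum of the 10 adipocyte markers was 47000 to 54400 CPM in Aged control and 10800 to 29700 in Aged burn, and their part was not tested. The gene that rose was Plin2, a coat protein of lipid droplets that macrophages also express, from 301 ± 24.6 to 1270 ± 431 CPM (SD, n = 3; log2 2.07, edgeR adjusted p = 0.0109). Cpt1b, the muscle and brown fat form of the enzyme that carries fatty acids into mitochondria, had group means of 0.542 CPM in Adult control and 6.09 in Adult burn, and of 0.283 in Aged control and 0.758 in Aged burn. Its response was the 1 of 18 that differed between ages (log2 difference -2.10 ± 0.57 SE, edgeR adjusted p = 0.0413), against 11.9% of all genes. Beside these values, 6 markers of brown and beige adipocytes summed to 174 to 536 CPM in Adult control and 2020 to 2620 in Adult burn, and the 8 muscle markers to 3010 CPM in Adult burn 1 but 57.4 and 12.9 in the other burned adults. The part of either in the Ppara values was not tested.

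The retinoid X receptors are the shared partners. Rxra stood at 175, 263 and 184 CPM in Adult control and 251, 237 and 199 in Adult burn. It stood at 244, 279 and 245 CPM in Aged control and 163, 128 and 190 in Aged burn. The aged groups did not overlap, and the log2 fold change of -0.67 ± 0.18 SE missed the threshold (edgeR adjusted p = 0.0517). Rxrg, the form of muscle and fat, stood at 36.0, 35.6 and 39.0 CPM in Aged control and 21.1, 5.89 and 25.2 in Aged burn (log2 -1.08 ± 0.48, adjusted p = 0.147), again without overlap and with Aged burn 2 lowest. Its adult values were 22.8, 49.5 and 29.8 CPM in controls and 37.7, 42.4 and 34.3 after burn. Rxrb, the widely expressed form, lay between 38.3 and 53.5 CPM throughout.

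The retinoic acid receptors differed in sign in aged mice, and edgeR called none of them with all libraries in. Rara stood at 19.5, 15.7 and 16.7 CPM in Aged control and 22.0, 45.5 and 23.2 in Aged burn (log2 0.81 ± 0.30 SE, edgeR adjusted p = 0.106), higher in all 3 burn libraries. Rarb, known as a retinoic acid target itself (its promoter is printed above), stood at 7.6, 8.29 and 10.2 CPM in Aged control and 4.95, 3.62 and 7.15 in Aged burn (log2 -0.73, adjusted p = 0.117), and was called without Aged burn 3. Rarg stood at 57.5, 52.9 and 44.3 CPM in Aged control and 42.7, 38.0 and 48.2 in Aged burn, and these overlapped. Rara was highest in Aged burn 2 (45.5 CPM), the library with most macrophage transcripts, and in Adult control 1 (45.3), the library with lymphocyte transcripts. The part of those cells was not tested.

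In adults, Rara stood at 45.3, 15.8 and 21.2 CPM in controls and 20.0, 21.9 and 20.8 after burn. Rarb stood at 4.58, 5.74 and 4.83 CPM in controls and 10.4, 4.04 and 6.09 after burn, and Rarg at 61.8, 50.0 and 44.2 in controls and 55.2, 36.1 and 31 after burn. The adult groups overlapped for all 3. Exons of Rarb share 1793 bases with Top2b. How counting treated strand was not given in the sources used here; reads of such pairs may be shared. Of 9 retinoic acid target genes, 6 were tested within each age. In adults 0 were called (0.0411% of all genes), and in aged mice 1 was called (16.7% of all genes), Cyp26b1, which breaks retinoic acid down. It rose from 8.67 ± 3.20 to 32.4 ± 9.22 CPM (SD, n = 3; log2 1.91, edgeR adjusted p = 0.0191).

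Both thyroid hormone receptors were lower in each burned aged library than in any aged control, and neither passed edgeR's test. Thra, the main form in fat, stood at 124, 140 and 143 CPM in Aged control and 79.6, 50.2 and 98.2 in Aged burn (log2 -0.83 ± 0.25 SE, edgeR adjusted p = 0.0649). DESeq2 called Thra (adjusted p = 0.0119), as did edgeR with all 12 libraries in the fit and without Aged burn 2 or 3. Thrb stood at 49.6, 55.2 and 46.0 CPM in Aged control and 18.6, 11.4 and 41.6 in Aged burn (log2 -1.07 ± 0.45, adjusted p = 0.13) and was called without Aged burn 3 (adjusted p = 0.00613). Aged burn 2 was lowest for both. In adults Thra stood at 83.5, 132 and 86.9 CPM in controls and 120, 119 and 96.0 after burn. Thrb stood at 18.0, 40.6 and 43.3 CPM in controls and 37.3, 45.0 and 46.3 after burn. The adult groups overlapped for both, with Adult control 1 lowest. Thra shares 263 exon bases with Nr1d1 on the opposite strand.

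Of 7 thyroid hormone target genes, 6 were tested within each age. In adults, where 0.0411% of all genes were called, 2 rose. They were the uncoupling protein gene Ucp1 and Dio2, the deiodinase that makes active thyroid hormone inside cells. Ucp1 is also 1 of the 6 brown and beige adipocyte markers, all of which were higher without overlap in burned adults (median log2 fold change 2.80), and their part was not tested. In aged mice Ucp1 and Dio2 rose from lower levels and Klf9, a transcription factor gene, fell. There 13.7% of all genes were called higher and 3.03% lower. In adults Dio2 went from 2.44 ± 0.52 to 31.2 ± 4.23 CPM (SD, n = 3; edgeR adjusted p = 0.016). In aged mice it went from 0.671 ± 0.187 to 2.12 ± 0.646 CPM (edgeR adjusted p = 0.0338). Klf9 went from 197 ± 21.1 to 75.6 ± 27.6 CPM in aged mice (log2 -1.38, adjusted p = 0.028). The responses of both Dio2 and Klf9 differed between ages (log2 -2.01 and -1.83, edgeR adjusted p = 0.0208 and 0.0247), where 11.9% of all genes were called.

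The oestrogen-related receptors have no generally agreed natural ligand and work with the coactivators of the PGC-1 family on genes of mitochondrial energy production. Esrra stood at 62.6, 76.2 and 81.5 CPM in Adult control and 92.8, 93.7 and 94.5 in Adult burn. It stood at 51.1, 58.7 and 48.8 CPM in Aged control and 48.4, 44.0 and 46.7 in Aged burn. The 3 Adult burn libraries were the highest of the 12, and the log2 fold change was 0.34 ± 0.14 SE in adults (edgeR adjusted p = 0.788) and -0.19 in aged mice. Esrrg stood at 2.77, 3.45 and 0.348 CPM in Adult control and 9.12, 6.76 and 7.36 in Adult burn (log2 1.81 ± 0.71, adjusted p = 0.788), without overlap. In aged mice it stood at 2.27, 1.11 and 3.64 CPM in controls and 2.4, 0.234 and 2.54 after burn. Esrrb had at most 0.642 CPM, and Esr1, the oestrogen receptor α gene, lay between 11.0 and 49.0 CPM with overlapping groups in both ages.

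All 9 target genes of the oestrogen-related receptors had positive fold changes in burned adults (median 0.94 on the log2 scale), 7 of them without overlap (background 6.76% of genes), and 0 were called. The 6 brown and beige adipocyte markers were also higher without overlap there, with sums of 174 to 536 CPM in Adult control and 2020 to 2620 in Adult burn. In aged mice 8 of 9 were negative (median -0.59), against 50.8% of all genes, and 0 were called, against 16.7%. The adipocyte markers summed to 47000 to 54400 CPM in aged controls and 10800 to 29700 after burn. The part of these markers was not tested. The responses of the fatty acid dehydrogenase gene Acadm (log2 -1.82, edgeR adjusted p = 0.0416) and the respiratory chain subunit gene Ndufs1 (-1.34, 0.045) differed between ages, both downward. Of 6 oestrogen receptor target genes 3 were tested, and the cell cycle gene Ccnd1 rose in aged mice (log2 2.29, adjusted p = 0.00909), where 13.7% of all genes were called higher. There all 8 markers of dividing cells rose, from 6.59 to 11.5 CPM in sum to 215 to 459.

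Coregulators carry the receptors' output. Of 18, 5 were called with burn in aged mice: Ncoa3, Tbl1xr1 and Pprc1 rose and Kat2b and Ppargc1a fell, against 16.7% of all genes, while 0 were called in adults. Ppargc1a, which encodes the coactivator PGC-1α, stood at 12.8, 21.0 and 19.0 CPM in Adult control and 25.8, 39.5 and 42.7 in Adult burn. It went from 25.1, 31.5 and 17.8 CPM in Aged control to 7.7, 3.31 and 10.7 in Aged burn (log2 -1.78 ± 0.44 SE, edgeR adjusted p = 0.0415). The gene was thus higher in every burned than control library in adults and lower in every one in aged mice. Beside these values, the 6 brown and beige adipocyte markers summed to 174 to 536 CPM in Adult control and 2020 to 2620 in Adult burn. The 10 adipocyte markers summed to 47000 to 54400 CPM in Aged control and 10800 to 29700 in Aged burn. The part of either was not tested. The responses of Ppargc1a (log2 -2.81, adjusted p = 0.0186), its relative Ppargc1b (-1.87, 0.0425), the acetyltransferase gene Kat2b (-1.20, 0.017) and the steroid receptor coactivator gene Ncoa3 (1.72, 0.0379) differed between ages, 4 of 18 against 11.9% of all genes.

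Vdr, the vitamin D receptor, was one of the least abundant members and the one that rose with burn in aged mice. The gene (Entrez 22337) spans chr15:97854427-97908296. It stood at 0.0863, 0.196 and 0.262 CPM in Aged control (3, 9 and 12 reads) and 1.67, 2.29 and 0.838 CPM in Aged burn (66, 88 and 30 reads). The means were 0.182 ± 0.0887 and 1.6 ± 0.729 CPM (SD, n = 3; log2 3.09 ± 0.55 SE, edgeR adjusted p = 0.0171). Adult values were 1.37, 0.226 and 0.309 CPM in controls and 0.68, 0.298 and 0.468 after burn, overlapping. Adult control 1, with its B and T cell markers, was the one library outside Aged burn above 1 CPM. The response differed between ages by 3.51 ± 1.01 on the log2 scale (edgeR adjusted p = 0.0475).

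Both Vdr calls rest on few reads, 311 over the 12 libraries. Leaving out any Aged control or Aged burn 1 ended the call in aged mice, with adjusted p up to 0.0911. Over all genes those fits called 0 to 872, against 2534 with all 6 libraries in. Over all 6 fits with 1 library left out the log2 fold change ran from 2.74 to 3.43. The difference between ages kept its call in 3 of 12 such fits (without Adult control 2, Adult control 3 or Aged burn 3) and was 2.25 without Adult control 1 and 1.84 without Adult control 1 and Aged burn 2. It also missed the threshold with upper quartile scaling, with no count filter and in limma-voom. The fits with 1 library left out that lost this call called 0 to 1245 genes over all genes, against 1845 with all libraries in. Per 1000 CPM of macrophage markers, Vdr averaged 0.276 CPM in Aged control and 0.227 in Aged burn, and the mean log2 value over libraries differed by -0.10. Of 6 vitamin D receptor target genes 2 were tested. Spp1, an adhesion protein gene that macrophages express strongly, rose in aged mice from 3.44 ± 2.61 to 805 ± 748 CPM (edgeR adjusted p = 0.0112). There 13.7% of all genes were called higher. The classical target Cyp24a1 was too low for any test.

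Nr3c2, the mineralocorticoid receptor, which also binds glucocorticoids in fat, stood at 12.5, 13.6 and 14.6 CPM in Aged control and 6.92, 2.66 and 10.1 in Aged burn (log2 -1.05, edgeR adjusted p = 0.135). It stood at 4.79, 9.06 and 6.45 CPM in Adult control and 8.36, 8.55 and 6.38 in Adult burn. The aged groups did not overlap, Aged burn 2 being lowest, and the adult groups did. Nr1h2, the liver X receptor β gene, stood at 74.1, 64.3 and 56.8 CPM in Adult control and 62.8, 66.7 and 56.1 in Adult burn. In aged mice it stood at 66.5, 77.9 and 66.0 CPM in controls and 66.0, 67.4 and 72.7 after burn. The groups overlapped in both ages. Of 8 liver X receptor target genes 1 rose in aged mice, the cholesterol exporter Abcg1 (log2 0.95, adjusted p = 0.0426). Of 8 corticosteroid target genes, Dusp1 rose (1.19, 0.0439) and the clock gene Per1 fell (-0.81, 0.049) in aged mice, while 0 passed in adults for either list. Of all genes, 13.7% were called higher and 3.03% lower in aged mice, and 0.0411% were called in adults.

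The NR4A receptors, whose promoters share the TGACG matches, differed in sign, and edgeR called none of them. Nr4a1 stood at 4.95, 3.54 and 4.52 CPM in Aged control and 8.21, 13.8 and 6.65 in Aged burn (log2 1.14 ± 0.32 SE, edgeR adjusted p = 0.0557), without overlap. DESeq2 called it (adjusted p = 0.00738), and edgeR did so without Aged burn 2 or 3. In adults it stood at 19.4, 2.52 and 3.13 CPM in controls and 9.88, 14.0 and 7.4 after burn. Adult control 1 lay above all burned adults and the other two controls below them. The adult log2 fold change was 0.31 with that library and 1.87 without it, so this library decides the value. Without Adult control 2 or 3 it was -0.11 or -0.08.

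Nr4a2 took the other sign in each age. It stood at 3.21, 4.09 and 3.44 CPM in Adult control and 5.08, 6.46 and 5.06 in Adult burn (log2 0.62 ± 0.23 SE, edgeR adjusted p = 0.788), without overlap. In aged mice it stood at 9.07, 6.79 and 7.77 CPM in controls and 4.14, 4.3 and 7.37 after burn (log2 -0.58, adjusted p = 0.175), with overlap. The difference, -1.21 ± 0.37, missed the threshold in edgeR (adjusted p = 0.0557). It passed with RLE scaling, without Adult control 2, without Aged burn 3 and in DESeq2 (adjusted p = 0.00788). Without Aged burn 3, edgeR also called the aged response. Nr4a3 had 221 reads in all and at most 1.58 CPM, in Adult control 1. Of 15 other immediate early genes, 4 rose with burn in aged mice (Egr2, Atf3, Fos and Dusp1) and 0 were called in adults. The background was 13.7% of genes called higher in aged mice and 0.0411% called in adults. Fos went from 4.13 ± 3.36 to 74.5 ± 49.2 CPM in aged mice (SD, n = 3; edgeR adjusted p = 0.0216) and from 4.87 ± 2.35 to 6.5 ± 3.86 in adults.

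Among the other orphan receptors, Rora fell with burn in aged mice. Rora, which encodes a receptor of the circadian and lipid metabolism network (Entrez 19883, chr9:68653404-69388246), stood at 9.93, 10.5 and 10.0 CPM in Aged control and 5.4, 5.86 and 7.04 in Aged burn (means 10.1 ± 0.293 and 6.1 ± 0.844 CPM, SD, n = 3). The log2 fold change was -0.73 ± 0.17 SE (edgeR adjusted p = 0.0363). In adults it stood at 4.56, 9.64 and 7.34 CPM in controls and 7.24, 7.99 and 6.77 after burn, with overlap. Leaving out any Aged control or Aged burn 1 ended the call (adjusted p up to 0.141), as did fitting all 12 libraries together. Over all genes, those fits called 0 to 872 without the library and 2888 with all 12, against 2534 as reported. The log2 value of Rora ran from -0.85 to -0.65 with a library left out.

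Nr2f1 (COUP-TFI) stood at 2.65, 2.64 and 1.66 CPM in Aged control and 3.76, 4.27 and 3.55 in Aged burn (log2 0.74, edgeR adjusted p = 0.101), without overlap. Its relative Nr2f2 (COUP-TFII) stood at 31.2, 37.2 and 27.7 CPM in Aged control and 23.1, 17.4 and 24.6 in Aged burn (log2 -0.56 ± 0.18, adjusted p = 0.0791), also without overlap but lower. In adults Nr2f1 stood at 6.88, 4.68 and 5.56 CPM in controls and 3.84, 3.15 and 5.28 after burn, overlapping. Nr2c2 stood at 50.5, 57.7 and 49.5 CPM in Aged control and 41.9, 42.0 and 47.7 in Aged burn, and at 68.6, 49.6 and 39.1 in Adult control and 48.8, 45.9 and 38.5 in Adult burn. Its exons share 4590 bases with Mrps25, so reads of the pair may be shared. Nr2f6 stood at 30.8, 39.1 and 42.9 CPM in Adult control and 49.0, 47.0 and 49.5 in Adult burn (log2 0.36, adjusted p = 0.788). Exons of Nr2f6 share 1622 bases with Ocel1 on the opposite strand, so reads of that pair may be shared too. Nr2c1, Nr5a2 and Nr6a1 had overlapping groups in both ages.

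The receptors were also set against the adipocyte sum of their own library. Per 1000 CPM of the 10 adipocyte markers, the mean log2 ratio over libraries differed between aged burn and control by 0.07 for Pparg, 0.01 for Ppara, -0.04 for Rxrg, 0.01 for Thrb and 0.05 for Nr3c2. These are the 5 members with an aged log2 fold change below -1 in CPM. The same difference was 0.60 for Rxra, 0.41 for Thra, 0.55 for Rora, 2.02 for Rara and 4.46 for Vdr. In adults it was 1.35 for Ppara, where the burned libraries stood at 2.67, 1.81 and 2.12 CPM per 1000 and the controls at 1.11, 0.886 and 0.631. The adipocyte list includes known PPARγ target genes, so it is not independent of Pparg. With 3 libraries against 3 the smallest p an exact permutation test can give is 0.1, so the 38 ratios computed are given as descriptions. Per 1000 CPM of macrophage markers the aged difference in mean log2 ratio was -2.54 for Rara, -2.18 for Nr4a1 and -2.50 for Nr2f1. The part of cell makeup in these values was not tested beyond these ratios.

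**Figure D4:**
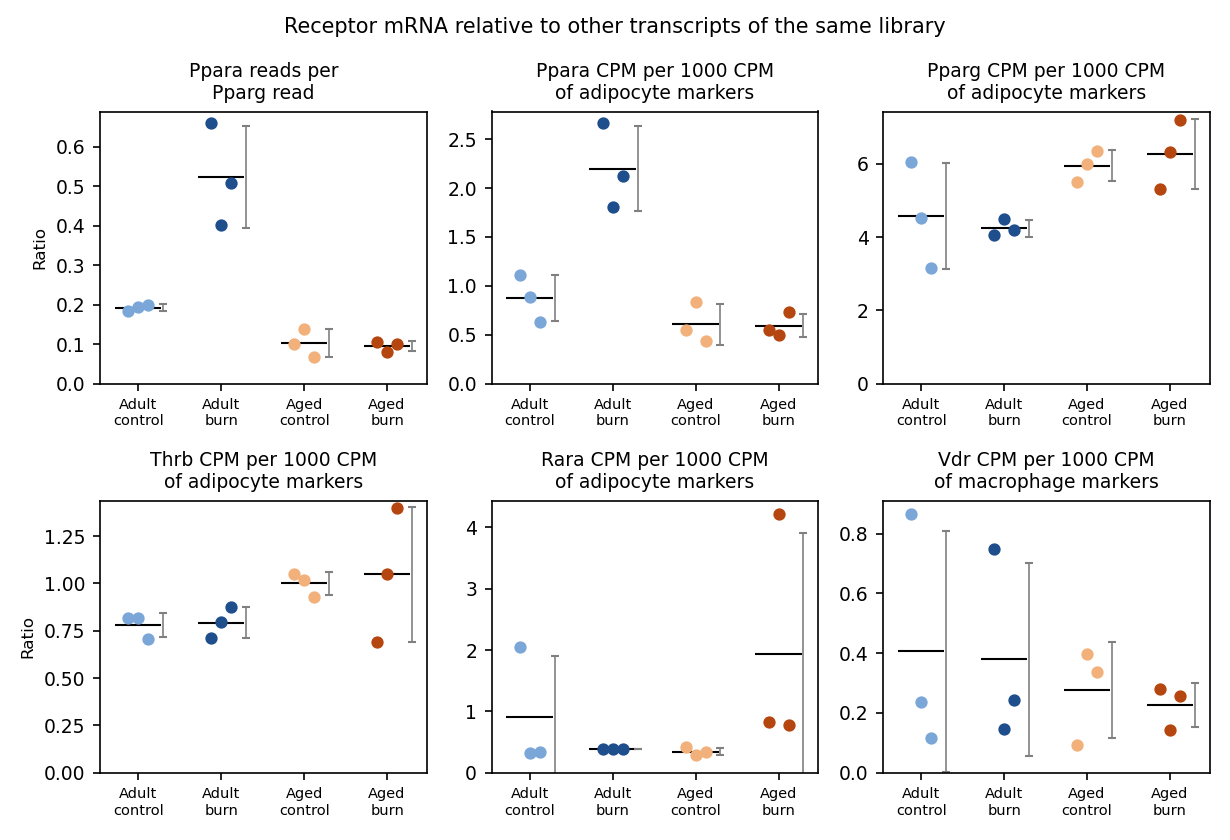
Ppara reads per Pparg read and receptor CPM per 1000 CPM of adipocyte markers, 1 point per library, with the group mean as a line and ± 1 SD as a bar (axes start at 0, where longer bars end). Also plotted are Thrb and Rara per adipocyte marker and Vdr per macrophage marker. The Adult burn libraries lie above all others for Ppara (0.402 to 0.66 reads per Pparg read), while Pparg per adipocyte marker overlaps between aged control and burn.

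Between untreated aged and adult mice, 0 of 29 tested members passed the test, where 0.424% of genes were called. At unadjusted p under 0.05, 6 members passed, against 26.3% of genes. DESeq2 called Nr2f1, Nr4a2 and Esrra, where it called 14.0% of genes. In 7 members every aged control library was above every adult control library (Pparg, Rarb, Thrb, Esrrb, Nr3c2, Nr4a2 and Rora), against 17.4% of genes, and in 2 below (Esrra and Nr2f1), against 15.6%. The edgeR log2 difference was 1.14 ± 0.26 SE for Nr4a2 (adjusted p = 0.0724), 1.0 ± 0.40 for Nr3c2 (0.15), -0.47 ± 0.12 for Esrra (0.0829) and -1.30 ± 0.28 for Nr2f1 (0.0684). Aged minus adult here also means 1 count table against the other.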

How the data were processed

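Polyadenylated RNA of adipose tissue was sequenced in 12 libraries, and per the labels' protocols RNA was extracted with Trizol and made into directional libraries. Per the submitters' processing notes, the tools were cutadapt, HISAT2, featureCounts, FastQC and MultiQC and the build mm10. Tool versions, annotation and strand setting were not given in the sources used here. Raw read counts per Entrez gene were deposited by the authors, 1 table per age. Of 27179 identifiers, 25275 matched a symbol of GRCm38.p6, and the rest took up 0.366% to 0.759% of the counts per library. Totals ran from 25231506 to 46531070, and their number sets the counting precision.

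Genes kept by filterByExpr (by group) were scaled by TMM and tested with edgeR 4.0.16 (R 4.3.3) by the quasi-likelihood F test, at an adjusted p of 0.05 (Benjamini-Hochberg over all genes tested). Each age's burn was fitted on its own 6 libraries. The difference between burn responses and aged against adult controls were tested over all 12. A standard error is the size of the log2 value over the root of its F statistic. Exon lengths came from GENCODE M21. The statistical steps were tested on simulated counts. Libraries of the same group differed by more than sampling noise (chi-square per degree of freedom at least 29.5).

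The members and gene lists were chosen with earlier results of these data known. A member is given with its value in every library if called, if its log2 change is at least 1 with a mean of at least 1 CPM, or if it is the most abundant of its class (others were added where groups did not overlap). From each list at most 4 called genes, or else the 2 most abundant, were eligible to be named; the fifth of the coregulators, Tbl1xr1, is named to complete its count, after its value was seen. A result selected by this rule is left out. Alternatives were RLE and upper quartile scaling, other count filters, DESeq2 1.42.0, limma-voom (limma 3.58.1), a replicate block, fits on other library sets, each library left out in turn and 2 pairs of libraries left out together.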

Additional observations from a re-analysis of the deposited data

Results flagged for a closer look

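The burn response of Ppara differed between the ages by -2.88 on the log2 scale (aged minus adult), in a test of the difference itself (edgeR adjusted p = 0.0233). Every burned adult library was above every control, and the aged groups overlapped.

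The burn response of Vdr differed between the ages by 3.51 on the log2 scale in the same test (edgeR adjusted p = 0.0475), with every burned aged library above every aged control and the adult groups overlapping. Age goes with count table and burn size for both genes, which cannot be told apart.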

How the results depend on the processing

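Of 920 refits of 51 member results, 825 kept direction and side of the threshold, 34 lost and 53 gained the call, and 8 changed sign, all for Nr4a1. Members called with burn in aged mice numbered 2 as reported, 8 with DESeq2, 4 with all 12 libraries in the fit and 0 to 11 with a library left out (0 without any Aged control or Aged burn 1, 7 without Aged burn 2, 11 without Aged burn 3). Over all genes, 2534 of 15132 were called as reported, 5011 of 15132 with DESeq2 and 2888 of 15553 with all 12 libraries. The gene count was 0 to 872 without any Aged control or Aged burn 1, 3265 of 15325 without Aged burn 2 and 5743 of 15401 without Aged burn 3. In adults the member count was 0, with 1 in DESeq2 and 0 to 0 with a library left out. The gene count there was 6, with 62 in DESeq2 and 0 to 5 with a library left out. For the difference between ages the member count was 2, with 9 in DESeq2, 1 each with upper quartile scaling, no count filter and limma-voom, 0 to 9 with a library left out, 0 without Adult control 1 and Adult burn 1 together and 1 without Aged burn 2 and Adult control 1 together. The gene count there was 1845, with 3783 in DESeq2, 1676 with upper quartile scaling, 1446 with no count filter and 833 in limma-voom. It was 0 to 4039 with a library left out, and 0 and 1409 without those pairs. For the controls the member count was 0, with 3 in DESeq2, 0 to 2 with a library left out (2 without Adult control 2 and 2 without Aged burn 2) and 2 without Aged burn 2 and Adult control 1 together. The gene count there was 66, with 2184 in DESeq2 and 0 to 2011 with a library left out. It was 2011 without Adult control 2, 789 without Aged burn 2 and 880 without that pair. With the replicate number as a block, member counts were 0 in aged mice, 0 in adults, 0 for the difference and 0 for the controls. Gene counts there were 917, 0, 413 and 0. The edgeR adjusted p was then 0.0662 for Vdr and 0.111 for Rora in aged mice and 0.057 for Ppara and 0.096 for Vdr in the difference. The numbers did not pair the libraries: correlations of same-numbered libraries ran from -0.541 to 0.234, and 5 of 18 pairs were best matched to their own number. The Nr4a1 log2 change in adults was 0.31, and -0.11 to 1.87 with a library left out: 1.87 if the library left out was Adult control 1, -0.11 for Adult control 2 and -0.08 for Adult control 3. Its difference between ages was 0.82 (-0.74 to 1.24 with a library left out), but -0.74 without Adult control 1, -0.78 without Adult control 1 and Adult burn 1 together and -1.14 without Aged burn 2 and Adult control 1 together. Its difference between controls was -0.95 (-1.37 to 0.61 with a library left out), but 0.61, 0.62 and 0.62 under the same 3 settings. The cause was not tested, beyond the smaller number of libraries. Depth limits Vdr (311 reads), Nr4a3, Esrrb, Pgr and Nr0b2.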

Other observations

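Enzymes that make or break down receptor ligands were also measured. Of 14, 10 were tested within each age. In burned aged mice Cyp26b1 and Dio2 rose and Sult1e1, which inactivates oestrogens by sulfation, fell from 20.7 ± 11.1 to 3.73 ± 0.332 CPM (SD, n = 3; log2 -2.47, edgeR adjusted p = 0.0123). In burned adults Dio2 rose, where 0.0411% of all genes were called. In burned aged mice 13.7% of all genes were called higher and 3.03% lower. Aldh1a1, which makes retinoic acid, stood at 209, 165 and 337 CPM in Aged control and 124, 36.3 and 91.4 in Aged burn (log2 -1.50, adjusted p = 0.0768), without overlap. No read of Cyp19a1, the aromatase gene, was found in the 12 libraries, which allows up to 0.00742 CPM, counting error only.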
